A study of Mus musculus with 24 samples.

Results

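Lung transcripts of C3H/HeOuJ (OuJ) mice after 48 h of ozone were compared with those of OuJ mice after 24 h of ozone. The 6 arrays, 3 mice at each time, were taken by their titles from a series of 24 arrays, and every gene that could be named and measured was tested. The series covers 8 groups of 3 male mice, OuJ and C3H/HeJ (HeJ) animals that breathed air or were exposed to ozone for 6, 24 or 48 h, and the RNA of each left lung lobe was hybridised to an array of its own. OuJ mice carry a sufficient Tlr4, the receptor that senses bacterial lipopolysaccharide, whereas the Tlr4 of HeJ mice is dominant negative. Both OuJ groups are therefore intact for Tlr4 and unmodified in any other labelled way. As groups, their labels differ only in the hours of exposure. The sources used here give no age, no ozone concentration and no word on whether the exposure was continuous. Each label calls its array a biological replicate.

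Ozone is an oxidant gas that injures the cells lining the airways and the mouths of the alveoli. In lungs hurt in this way, club cells and alveolar type 2 cells are known to re-enter the cell cycle and replace the lost epithelium, while macrophages clear debris. Cells that divide pass through a phase of DNA synthesis and then through mitosis, and many transcripts of each phase are made only in cycling cells, so that their level in a whole organ follows the number of cells in cycle. The lobe is a mixture of cells, and a higher share of cycling cells and more of a transcript per cell cannot be told apart.

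The arrays of the comparison were similar in brightness and in their overall profile. Median signals lay between 206.25 and 229.3, and Pearson correlations across probe sets were 0.969 to 0.972 within the 24 h group, 0.971 to 0.975 within the 48 h group and 0.968 to 0.972 between them. Defining lung markers were bright on all 6 arrays. The surfactant gene Sftpc had a signal of 30587.1 to 40617.4, the club cell gene Scgb1a1 27757.9 to 34989.5, the alveolar type 1 gene Ager 13662 to 16441.4 and the endothelial gene Pecam1 2784.5 to 3824.9. The 5' to 3' signal ratio of the control transcripts, which falls as RNA degrades, was 0.894 ± 0.114 at 48 h and 0.851 ± 0.0846 at 24 h for Gapdh (SD, n = 3 each, two-sided exact permutation p = 0.5, adjusted over both ratios 0.5) and 0.916 ± 0.0279 against 0.853 ± 0.0387 for actin (exact permutation p = 0.1, adjusted 0.2). With 3 arrays against 3 such a test can give no p below 0.1. The actin ratio was higher on every 48 h array than on any 24 h array, and its part in the results was not tested.

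From 24 to 48 h of ozone, 12 genes rose and none fell in OuJ lung among 8008 genes tested, which is 0.150% of them (limma, adjusted p under 0.05). Ubiquitin-conjugating enzyme Ube2c, cyclin Ccnb2, the proliferation marker Mki67, the mitotic kinesin Kif22, the spindle midzone protein Prc1, the securin Pttg1, the mitotic kinase Pbk and the anaphase activator Cdc20 belong to cell division. Rrm2, Pclaf and Tcf19 are genes of DNA synthesis and of the entry into it, and Dctn2 encodes a dynactin subunit that links dynein to its cargo. The changes ran from 0.60 to 1.78 on the log2(signal + 16) scale, on which 1 unit is a doubling of the signal plus 16, with standard errors of 0.12 to 0.28. At an unadjusted p under 0.05 there were 640 genes, or 7.99%, and the median change of all genes was 0.01. The split of 12 up and 0 down depended on the scaling and the weighting of the arrays. Centring each array on its median gave 11 up and 10 down, quantile normalization 12 up and 3 down, and array weights 17 up and 10 down. The count also moved with single arrays, from 6 genes without the first 48 h array to 22 without the third 24 h array.

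Among the 12 genes that rose, Ube2c, which hands ubiquitin to cyclins and securin at anaphase, had the largest change. Its signals were 110.3, 96.4 and 117.1 on the 24 h arrays and 442.5, 358.7 and 428.9 on the 48 h arrays. The lowest 48 h value was thus far above the highest 24 h value, and the change was 1.78 ± 0.20 (SE, adjusted p = 1.96e-05, limma). Cyclin B2 (Ccnb2), a partner of the mitotic kinase Cdk1, had signals of 72.6, 78.1 and 53.5 at 24 h and 268.6, 249.8 and 261.8 at 48 h. The groups did not overlap, and the rise was 1.73 ± 0.25 (adjusted p = 7.62e-04, limma). Cdc20, which activates the anaphase-promoting complex, stood at 210.1, 198.3 and 161.4 and then at 349.5, 389.6 and 376.4. Its rise of 0.92 ± 0.19 was the one closest to the threshold among the 12 (adjusted p = 0.0339, limma).

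Pttg1, the securin that keeps sister chromatids from being parted before anaphase, had the smallest adjusted p of the comparison. It was measured at 677.1, 655.3 and 495.6 at 24 h and at 1540.5, 1380.5 and 1573.9 at 48 h. All 3 arrays of 48 h lay above those of 24 h, with a rise of 1.29 ± 0.13 (adjusted p = 1.41e-05, limma). Pttg1 was also the only one of the 12 genes that differed from air at 24 h: it was lower than in air by then, by -0.59 ± 0.13 (adjusted p = 0.00809, limma), and higher than in air at 48 h, by 0.69 ± 0.13 (adjusted p = 0.00235, limma). Its air arrays, at 893.0, 971.1 and 895.0, lay between the arrays of 24 h and 48 h without overlap.

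The genes of the spindle and of dividing nuclei were also higher on all 48 h arrays. Mki67, whose protein coats mitotic chromosomes, read 147.0, 93.5 and 129.5 at 24 h against 489.2, 418.8 and 429.5 at 48 h. Its groups were clearly apart, and the rise was 1.75 ± 0.27 (adjusted p = 0.00238, limma). Prc1, which bundles microtubules at the spindle midzone, read 138.5, 136.1 and 126.2 and then 414.6, 348.1 and 317.4. The rise was 1.32 ± 0.18 (adjusted p = 3.88e-04, limma), again with no overlap. Kif22, a kinesin that moves chromosome arms, read 72.4, 63.5 and 63.3 and then 241.0, 226.9 and 219.1, a rise of 1.57 ± 0.28 (adjusted p = 0.0104, limma). Pbk, a kinase active in mitosis, read 167.6, 204.0 and 135.9 and then 453.7, 318.6 and 342.7, a rise of 1.07 ± 0.19 (adjusted p = 0.0106, limma). Both were higher on every 48 h array than on any 24 h array.

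Of the genes of DNA synthesis, Rrm2, the regulated subunit of ribonucleotide reductase, had signals of 311.7, 211.8 and 190.2 at 24 h and 540.9, 412.0 and 486.9 at 48 h. The first 24 h array was the highest of its group and still below every 48 h array, and the rise was 0.99 ± 0.18 (adjusted p = 0.0106, limma). Pclaf, a protein that binds the sliding clamp PCNA, went from 247.6, 405.8 and 308.0 to 850.1, 710.8 and 771.5, by 1.26 ± 0.20 (adjusted p = 0.00254, limma). Tcf19, a transcription factor gene expressed late in the approach to DNA synthesis, went from 266.6, 293.8 and 228.7 to 469.0, 402.6 and 457.2, by 0.72 ± 0.14 (adjusted p = 0.0276, limma). Dctn2, which is no cell cycle gene by its textbook role, went from 1264.1, 1400.3 and 1690.6 to 2427.3, 1946.6 and 2223.2. This was the smallest rise of the 12, at 0.60 ± 0.12 (adjusted p = 0.0276, limma), and its groups did not overlap either.

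All 12 genes were higher on every 48 h array than on any 24 h array, a separation seen in 585 genes, or 7.31% of those tested. It is also what the test rewards, and 6 of the 12 (Ube2c, Prc1, Ccnb2, Mki67, Kif22 and Pbk) passed the filter on dim probe sets only through 48 h arrays of the 2 strains. Without that filter 12393 genes were tested, 15 rose (0.121%) and 2 fell (0.0161%), and 11 of the 12 were among the 15, with Cdc20 at an adjusted p of 0.0513 (limma). Pttg1 and Pclaf passed in each of 17 alternative analyses, and Ube2c, Mki67, Ccnb2 and Prc1 in each of the 16 that tested them. Kif22 passed in 13 of 16, Pbk in 12 of 16, Rrm2 in 12 of 17, Tcf19 in 11 of 17, Dctn2 in 10 of 17 and Cdc20 in 8 of 17. For 6 of the 12 genes the array holds 10 further probe sets, of which 7 had a change above 0. The 3 below 0 belong to Cdc20, Kif22 and Pclaf and were dim, with mean signals of 55.6 or less at both times.

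**Figure D1:**
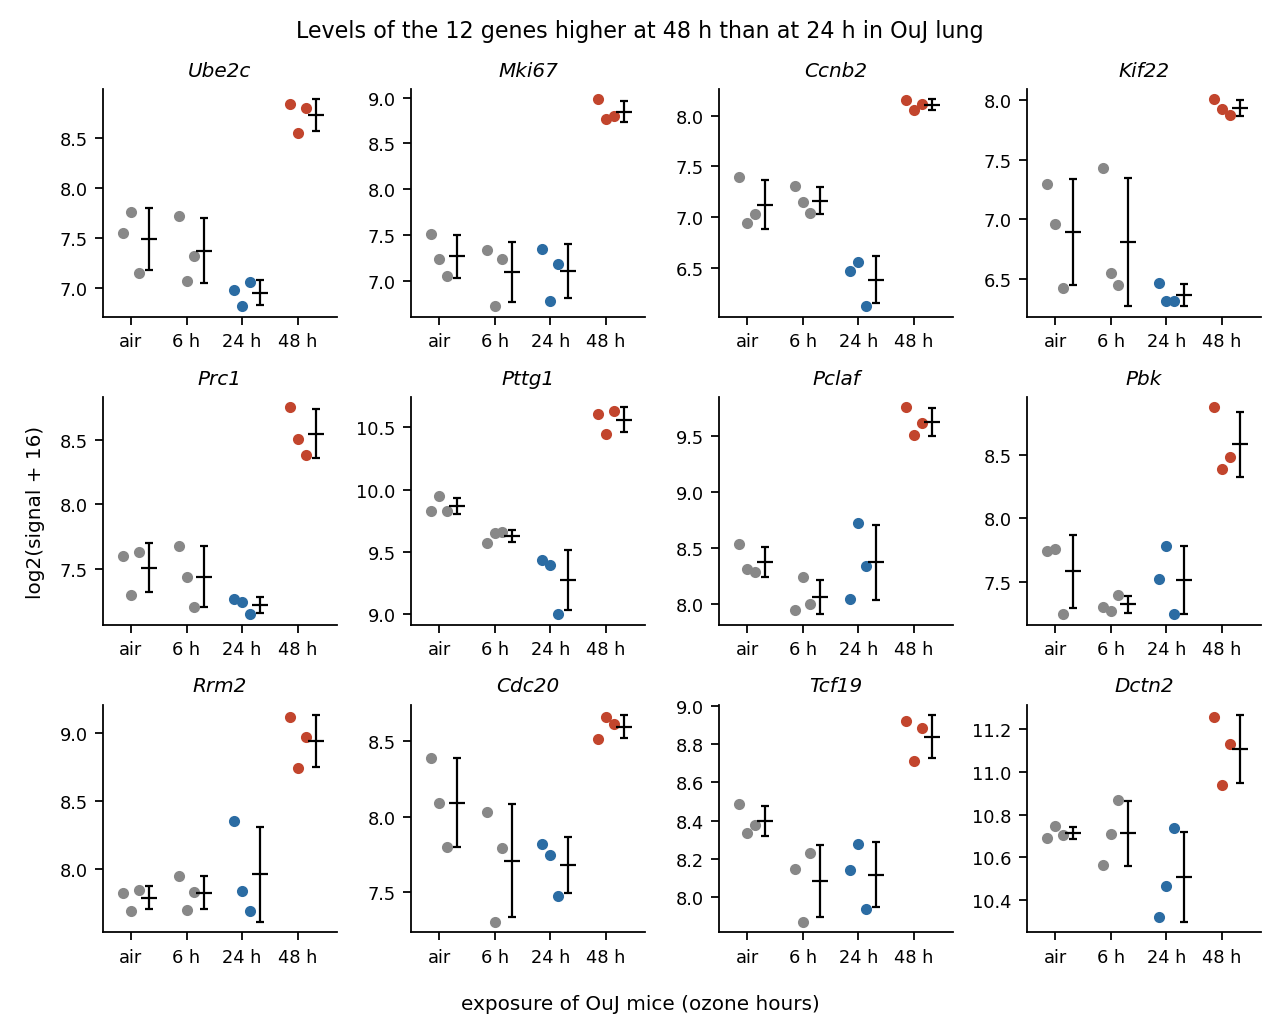
Levels of the 12 genes that rose, as log2(signal + 16), on the OuJ arrays in air and after 6, 24 and 48 h of ozone. Each point is 1 mouse and the bar beside each group is its mean with the SD (n = 3). In every panel the 3 points of 48 h lie above all points of 24 h, 6 h and air.

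Promoters of genes that peak late in the cell cycle often carry 2 short elements: the CCAAT box, bound by NF-Y, and the cell cycle genes homology region (CHR), bound by MuvB complexes. The RefSeq promoter table (build GRCm38.p6) held an entry for 11 of the 12 genes, all but Pbk, and the 250 bases before the first listed start were searched on both strands for CCAAT and for the CHR letters TTTGAA or TTCGAA. The sequences below are shown because they hold both elements within that stretch, which was so for 5 of the 11 genes (45.5%). They are written 5' to 3' in the direction of the gene, with each match in capitals, so that ATTGG and TTCAAA are matches on the other strand, and in Ube2c a pair of CCAAT matches overlap.
Ccnb2: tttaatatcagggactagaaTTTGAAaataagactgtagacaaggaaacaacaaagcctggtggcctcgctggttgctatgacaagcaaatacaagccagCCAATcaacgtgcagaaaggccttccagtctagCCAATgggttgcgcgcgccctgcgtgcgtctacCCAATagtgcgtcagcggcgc
Cdc20: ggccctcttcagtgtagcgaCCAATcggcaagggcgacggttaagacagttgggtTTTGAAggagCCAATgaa
Mki67: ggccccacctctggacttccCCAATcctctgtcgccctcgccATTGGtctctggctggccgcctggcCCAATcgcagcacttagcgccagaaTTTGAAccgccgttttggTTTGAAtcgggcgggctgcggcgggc
Ube2c: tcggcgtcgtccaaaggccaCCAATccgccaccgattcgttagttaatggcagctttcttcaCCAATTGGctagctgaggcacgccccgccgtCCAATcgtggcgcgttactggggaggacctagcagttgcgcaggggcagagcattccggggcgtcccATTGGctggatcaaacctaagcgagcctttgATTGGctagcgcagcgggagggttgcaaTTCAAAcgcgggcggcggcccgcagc
Kif22: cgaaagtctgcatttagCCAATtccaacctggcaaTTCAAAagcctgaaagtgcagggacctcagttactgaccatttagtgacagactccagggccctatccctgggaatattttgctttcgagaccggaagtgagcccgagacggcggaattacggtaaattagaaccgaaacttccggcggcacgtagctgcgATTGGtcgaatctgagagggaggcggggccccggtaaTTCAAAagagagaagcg
The stretches lie at chr9:70421555-70421741, chr4:118437344-118437416, chr7:135716452-135716587, chr2:164769681-164769925 and chr7:127042421-127042670, in that order. The gene is on the plus strand for Ube2c and on the minus strand for the others.

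In Cdc20 the CHR match begins 18 bases before the start and lies between CCAAT matches at 53 and 8 bases. In Ube2c the CHR match at 29 bases follows a CCAAT match at 57 bases, and in Kif22 a CHR match at 17 bases follows one at 54 bases. Mki67 holds CHR matches at 116 and 98 bases below CCAAT matches at 188, 166 and 141 bases. In Ccnb2 the order is the other way round, with a CHR match at 167 bases and CCAAT matches at 87, 54 and 21 bases. CCAAT was found in 10 of the 11 genes (90.9%), the exception being Pttg1, whose window held neither element. The same letters were found in 34.5% of 27025 RefSeq promoters and in 35.3% of the 6487 tested genes that had an entry. A CHR match in either form was found in 17.4% and 12% of them, and both elements together in 6.21% and 4.29%. Among the mitosis genes described next, 31 of 42 with an entry (73.8%) held CCAAT and 17 of 42 (40.5%) a CHR match. A match is a run of letters and was not tested as a binding site.

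The wider set of mitosis and spindle genes was higher at 48 h nearly throughout. Of 55 listed genes 52 were on the array and 25 passed the filter, 11 of them only through 48 h arrays, so the values that follow come from the 52 in the fit without the filter. In that fit 9 rose, none fell, and 48 had a change above 0, against 53.9% of all genes. For 36 of the 52, all 3 arrays of 48 h lay above the 3 of 24 h, against 7.42% of all 12393 genes. The median change was 0.68, with a range of -0.80 to 2.19, against a median of 0.02 over all genes. The list was written with results of these arrays known and overlaps the 12 genes above, so its counts are no independent evidence of a direction. With the filter, 7 of 25 rose, and leaving out the first 48 h array left 4.

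The 9 that rose without the filter were Ube2c, Mki67, Ccnb2, Prc1, Kif22 and Pbk, together with Melk, a kinase of proliferating cells, the spindle assembly factor Tpx2 and the cleavage furrow protein Anln. Melk had signals of 8.2, 8.8 and 10.3 at 24 h and 74.2, 56.3 and 32.5 at 48 h. Its change was 1.44 ± 0.21 (adjusted p = 0.00214, limma), but the 24 h signals are among the dimmest of an array. Anln went from 110.1, 94.6 and 104.6 to 237.6, 189 and 210, by 0.93 ± 0.17 (adjusted p = 0.0207, limma). Cep55, a protein of the last cut between daughter cells that is not on the list, went from 72.7, 49.6 and 32.8 to 226.3, 130.4 and 188.9, by 1.56 ± 0.25 (adjusted p = 0.00498, limma). It was chosen after its values were seen.

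Several well-known mitosis genes had large differences that did not pass. Cdk1, the kinase that starts mitosis, had signals of 208.7, 101.7 and 25.6 at 24 h and 444.4, 412.6 and 514.7 at 48 h. The groups did not overlap, but the 24 h arrays differed among themselves, and the difference was 2.19 ± 0.64 (adjusted p = 0.264, limma). Birc5, the survivin of the chromosomal passenger complex, read 165.8, 59.2 and 85.6 and then 376.1, 265.8 and 358.3, a difference of 1.63 ± 0.36 (adjusted p = 0.0686, limma). Racgap1, which positions the cleavage furrow, differed by 0.90 ± 0.20 (adjusted p = 0.0686, limma), and topoisomerase Top2a by 0.94 ± 0.25 (adjusted p = 0.192, limma). Both were higher on all 48 h arrays than on any 24 h array. Cyclin A2 (Ccna2) had a value that differed between its probe sets: the one used here differed by 0.49 ± 0.19 (adjusted p = 0.468, limma) and the other by 1.04 ± 0.19, which passed when every kept probe set was tested by itself (adjusted p = 0.0172, limma). At the low end of the list Ncaph, Hmmr, Cenpf and Ncapg had values of -0.12, -0.09, -0.15 and -0.80 in the fit without the filter, with 0.29 for another probe set of Ncaph.

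The genes of DNA replication and nucleotide synthesis were higher by less. Of 56 listed genes 51 were on the array, and without the filter 1 rose, Rrm2, against 0.121% of all genes, none fell, and 47 of 51 had a change above 0. Their median change was 0.38, and in 24 of 51 all 48 h arrays lay above all 24 h arrays, against 7.42% of all genes. Tk1, the thymidine kinase of cycling cells, read 164.8, 129.5 and 98.5 at 24 h and 276.0, 263.1 and 267.6 at 48 h, a difference of 0.98 ± 0.26 (adjusted p = 0.192, limma). The replicative helicase subunit Mcm5 read 186.0, 248.5 and 215.0 and then 459.4, 388.8 and 326.2, a difference of 0.81 ± 0.22 (adjusted p = 0.203, limma). Its partner Mcm7 read 1057.4, 1098.0 and 895.9 against 1412.0, 1352.5 and 1340.6 and differed by 0.43 ± 0.11 (adjusted p = 0.155, limma). None of these groups overlapped, but another kept probe set of Mcm7 had a value of -0.21. Of 6 histone and chromatin genes none passed, with Hmgb2 at 0.53 ± 0.20 (adjusted p = 0.449, limma) and a median of 0.25.

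**Figure D2:**
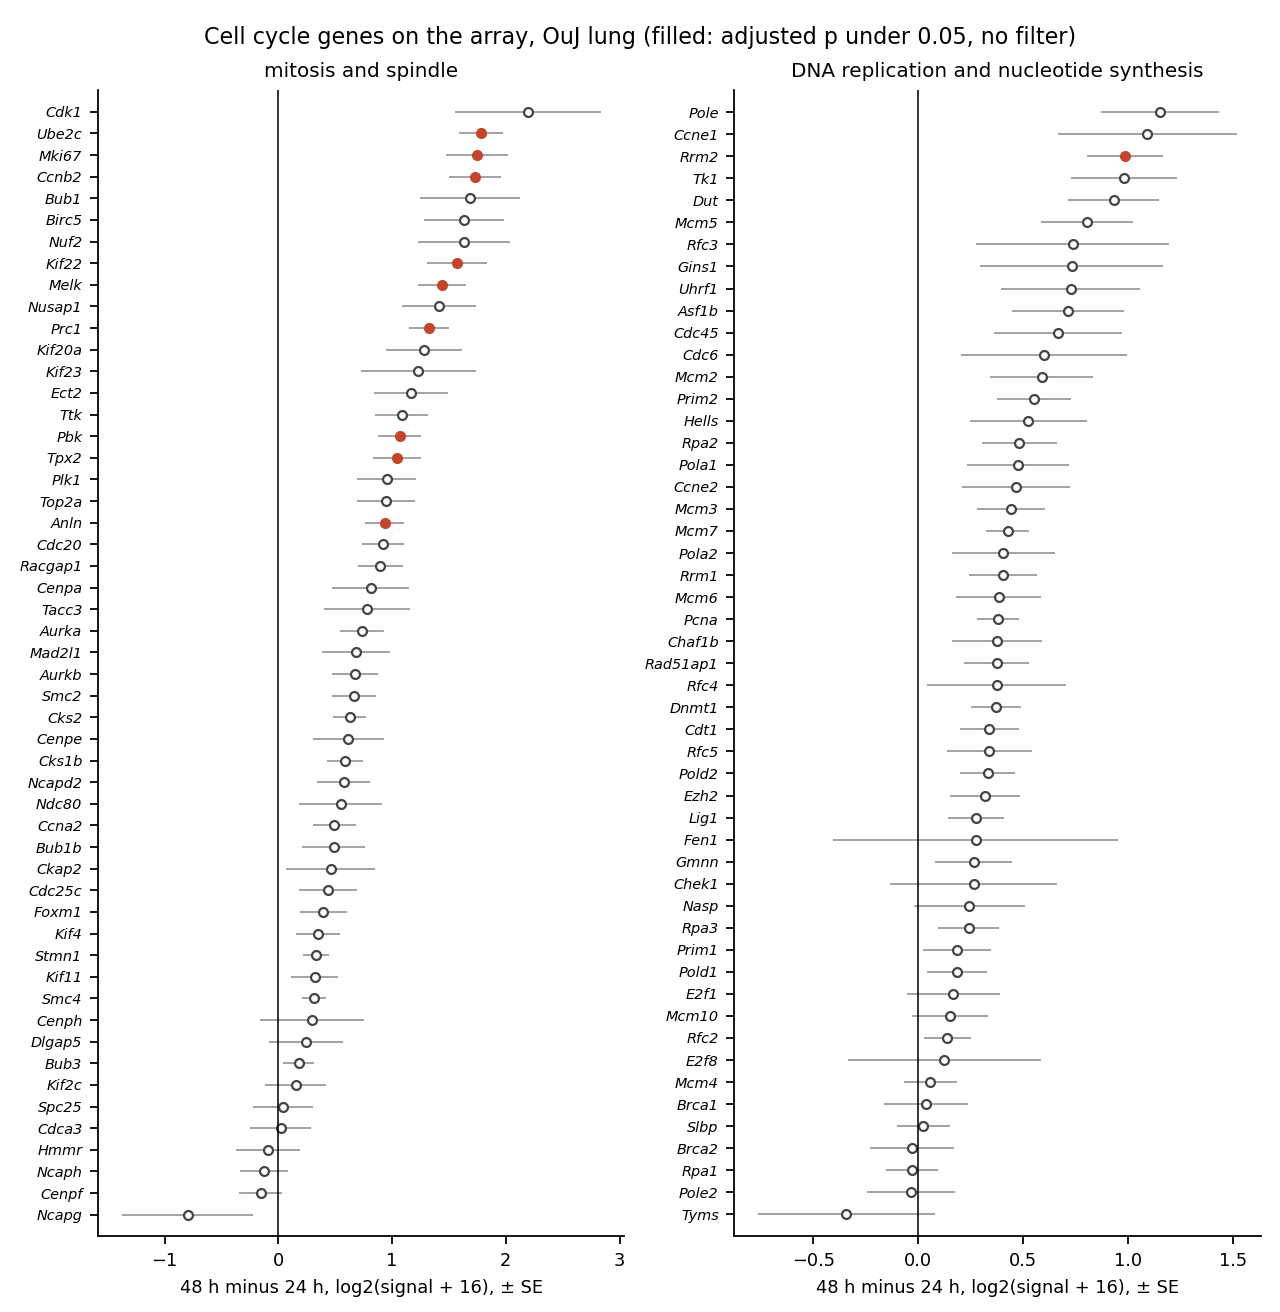
Change from 24 to 48 h of ozone in OuJ lung for each mitosis and spindle gene (left) and each DNA replication and nucleotide synthesis gene (right) on the array, in the fit without the filter. Points are differences of log2(signal + 16) with 1 SE either side, and filled points have an adjusted p under 0.05. On the left 48 of 52 points and on the right 47 of 51 lie above 0.

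Set beside air, most of the 12 genes were higher at 48 h. Of the 12 genes, 10 were higher at 48 h than in air (3.70% of all genes were), Tcf19 and Cdc20 being the exceptions, with values of 0.44 and 0.50, and none was higher at 24 h. All 3 arrays of 48 h lay above all 3 air arrays and all 3 arrays of 6 h in each of the 12, as in 7.12% of all genes, though the 12 were chosen for high 48 h levels. At 24 h 11 of the 12 had values below those of air, of which Pttg1 alone passed (3.41% of all genes were lower). Of all 8008 genes, 44.9% had values above those of air at 24 h. The 12 were chosen for low 24 h levels as much as for high 48 h levels, so nothing is read from that count. Over the 52 mitosis genes the median difference from air was -0.14 at 24 h, with 35 below 0, and 0.61 at 48 h, with 46 above 0. Over the 8008 genes that passed the filter the medians were -0.03 and -0.02, with 44.9% and 46.2% above 0. These comparisons share the ozone arrays with the change from 24 to 48 h and share the air arrays with each other. The air and 6 h arrays also carry sample codes of series 3 and the 24 and 48 h arrays codes of series 10, so a difference from air cannot be told apart from whatever the code series marks, whereas the change from 24 to 48 h lies within a single one.

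Heat shock proteins and chaperones, which refold damaged proteins, differed more among the 24 h mice than between the times. None of 32 tested members passed, 26 had values above 0, and the median was 0.30. The mean level of the list, in log2(signal + 16), was 10.689, 10.706 and 11.799 on the 24 h arrays and 11.338, 11.203 and 11.515 on the 48 h arrays, against 9.842 to 10.17 in air. The third 24 h array stood above all others. It held the highest 24 h signal in 31 of the 32 genes, against 32.0% of all genes, while the other 24 h arrays were both below every 48 h array in 25 of the 32, against 13.5% of all genes.

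Hsph1, the large cochaperone of Hsp70, read 2003.4, 2225.2 and 10396.1 at 24 h and 5472.0, 4749.2 and 7834.8 at 48 h. The times overlapped only through the third 24 h array, and the difference was 0.71 ± 0.39 (adjusted p = 0.687, limma). Dnaja1, an Hsp40 that feeds clients to Hsp70, read 3560.1, 4143.8 and 10878.5 and then 11082.0, 6812.8 and 10995.4, a difference of 0.79 ± 0.28 (adjusted p = 0.432, limma). The inducible Hsp70 gene Hspa1b read 3617.8, 4218.5 and 14050.7 and then 10772.8, 10388.9 and 11660.9, and its near-identical neighbour Hspa1a, whose probes may share signal with it, 1356.9, 1357.9 and 7988.4 and then 4000.0, 3050.4 and 5302.9. Both overlapped between the times.

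Leaving out the third 24 h array moved this group past the threshold in part. Then 18 genes rose (0.225% of all) and 4 fell, and 9 of the 18 were heat shock genes: Hsph1, Dnaja1, Ahsa2, Cacybp, St13, Hspb1, Bag3, Hspa4l and Stip1. Hsph1 changed by 1.47 ± 0.26 (adjusted p = 0.00876, limma), Dnaja1 by 1.29 ± 0.21 (adjusted p = 0.00364, limma) and Ahsa2 by 1.25 ± 0.16 (adjusted p = 3.46e-04, limma). The median of the 32 genes was then 0.71. The array left out held the highest 24 h signal in 31 of these 32 genes. Leaving it out therefore raises their change, and these counts and p-values are no independent evidence of a rise. Leaving out any other of the 6 arrays gave no heat shock gene that passed. The endoplasmic reticulum chaperone Hspa5 read 9736.4, 8419.6 and 12803.7 at 24 h and 12941.7, 13702.4 and 15648.6 at 48 h, with no overlap and a difference of 0.47 ± 0.13 (adjusted p = 0.238, limma). Without the third 24 h array, its highest of that time, Hspa5 passed at 0.63 ± 0.13 (adjusted p = 0.0258, limma). Of the 37 genes of the unfolded protein response none passed with all arrays, and their median was 0.10. Against air, 22 of the 32 heat shock genes were higher at 24 h and 22 at 48 h, where 3.16% and 3.70% of all genes were.

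**Figure D3:**
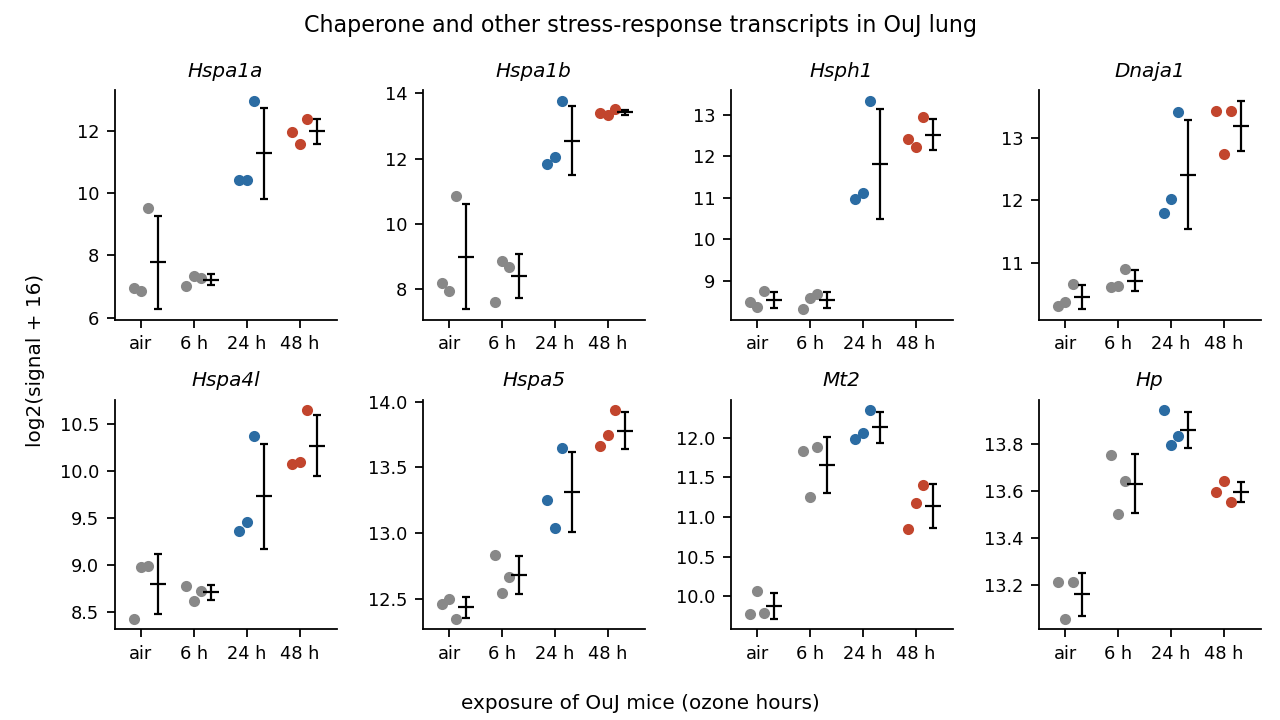
Levels of 6 chaperone genes, of Mt2 and of the acute phase gene Hp as log2(signal + 16) on the OuJ arrays. Each point is 1 mouse, in replicate order from left to right, and the bar beside each group is its mean with the SD (n = 3). In Hspa1a, Hspa1b, Hsph1, Dnaja1 and Hspa4l the third 24 h array lies far above the other 24 h arrays and within or above the 48 h group.

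No gene passed as lower at 48 h than at 24 h. The smallest p-values in that direction belonged to Slc44a3, Mt2, Endog, Hey1, Bik and Igfbp6. Mt2, a metallothionein that binds zinc and scavenges oxidants, read 4037.2, 4255.4 and 5197.6 at 24 h and 1825.8, 2299.1 and 2692.2 at 48 h, against 863.8, 1054.0 and 868.1 in air. Air, 24 h and 48 h did not overlap, and the difference from 24 to 48 h was -0.99 ± 0.21 (adjusted p = 0.0649, limma). Mt2 was higher than in air at both times, by 2.25 ± 0.21 (adjusted p = 1.19e-06, limma) and 1.26 ± 0.21 (adjusted p = 6.97e-04, limma).

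Slc44a3, a gene of the choline transporter-like family, read 410.9, 457.1 and 434.0 and then 285.2, 303.2 and 320.7, a difference of -0.50 ± 0.11 (adjusted p = 0.0649, limma). Its 48 h arrays were also the lower ones against air, by -0.46 ± 0.11 (adjusted p = 0.00955, limma). The mitochondrial nuclease Endog differed by -0.60 ± 0.13 (adjusted p = 0.065, limma), the Notch target Hey1 by -0.54 ± 0.12 (adjusted p = 0.0706, limma), the cell death gene Bik by -0.66 ± 0.15 (adjusted p = 0.0814, limma) and the growth factor binding protein Igfbp6 by -0.68 ± 0.16 (adjusted p = 0.0814, limma). In each of the 6 genes every 48 h array lay below every 24 h array, which 7.19% of all genes did. A second kept probe set of Endog had a value of 0.16, and the mean of its probe sets gave -0.22. Of 17 alternatives, Slc44a3 passed as lower in 5, Bik and Endog in 4, Mt2 in 3 and Hey1 and Igfbp6 in 2, median centring and array weights among them for each. Hpgd, which inactivates prostaglandins, read 4922.7, 4654.8 and 3561.9 and then 3116.4, 2560.1 and 1987.7, and its difference was -0.78 ± 0.18 (adjusted p = 0.0847, limma). Without the third 24 h array, its lowest of that time, it passed, at -0.93 ± 0.20 (adjusted p = 0.043, limma).

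Genes of the resident lung lining and vessels lay slightly lower at 48 h, and none passed. Of 42 endothelial genes 10 had values above 0, 11 were lower on every 48 h array (7.19% of all genes were) and the median was -0.14. Their mean level was 11.175, 11.178 and 11.167 at 24 h and 11.003, 11.087 and 11.000 at 48 h, without overlap, and 11.147 to 11.284 in air. Car4, the carbonic anhydrase of lung capillaries, read 4407.0, 3808.8 and 4238.5 and then 3230.6, 3347.0 and 3146.7, a difference of -0.35 ± 0.10 (adjusted p = 0.203, limma). Its other kept probe set had a value of -0.01, with mean signals of 3414.2 and 3365.3, and the mean of both gave -0.18.

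Of 21 alveolar type 1 genes, 3 had values above 0 and the median was -0.12. Col4a3, a collagen of the alveolar basement membrane, was their leading gene by p, at 2065.3, 1994.5 and 1825.2 against 1522.1, 1464.5 and 1405.3, with no overlap and a difference of -0.42 ± 0.13 (adjusted p = 0.329, limma). Of 20 adipose and lipid handling genes 2 were above 0, with a median of -0.19. The alveolar type 2 and club cell lists had medians of -0.02 and -0.09. The ciliated cell list lay the other way, with a median of 0.09 and 10 of 11 genes above 0. Krt8, a keratin of simple and regenerating epithelium, read 4062.7, 3977.5 and 4414.7 and then 5352.1, 5325.8 and 5810.3. It did not overlap between the times and differed by 0.40 ± 0.11 (adjusted p = 0.203, limma), from levels already above air at 24 h by 0.75 ± 0.11 (adjusted p = 2.21e-04, limma). The 25 epithelial repair genes, to which it belongs, had a median of 0.10.

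Lymphocyte genes were closer to their air level at 48 h than at 24 h, again with none that passed. The mean level of the B cell list was 7.976, 7.942 and 7.567 at 24 h, 8.157, 8.062 and 8.225 at 48 h and 8.701 to 9.016 in air. That of the T and NK cell list was 7.807, 7.769 and 7.572, then 7.982, 8.067 and 8.039, and 8.565 to 8.697 in air. Neither list overlapped between 24 and 48 h, and both stayed below air. The median change was 0.35 in 17 B cell genes, or 0.15 without the third 24 h array, and 0.36 in 14 T and NK cell genes. Counting members that the filter left out, 18 of 23 and 28 of 37 had values above 0, with medians of 0.22 and 0.27. Against air, 12 of the 17 B cell genes were lower at 24 h and 9 at 48 h, and 10 and 3 of the 14 T and NK cell genes, where 3.41% and 4.21% of all genes were. The B cell surface gene Ms4a1 read 198.9, 240.3 and 117.8 at 24 h and 326.6, 289.1 and 322.8 at 48 h, with 488.8, 774.8 and 565.5 in air. It did not overlap between the times and differed by 0.75 ± 0.28 (adjusted p = 0.447, limma).

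Red cell genes lay on the same side, and none passed. Of 14 on the array 13 had values above 0, and the 6 tested had a median of 0.42. Slc4a1, the anion exchanger of the red cell membrane, read 64, 96.1 and 158.9 at 24 h and 171.7, 112.8 and 446.4 at 48 h. The third 48 h array was the highest, the times overlapped, and the difference was 0.94 ± 0.37 (adjusted p = 0.489, limma). Red cell transcripts come with the blood left in a lobe, and the part of such blood in the lymphocyte values was not tested.

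Among inflammatory genes none passed. S100a8, a calcium-binding protein of neutrophils, read 351.9, 318.9 and 180.2 at 24 h and 652.8, 586.0 and 373.3 at 48 h, below its air values of 1436.0, 1032.1 and 1078.7. The times did not overlap, and the difference was 0.90 ± 0.32 (adjusted p = 0.432, limma). S100a8 had the largest change of the 8 neutrophil genes tested. Their median was 0.06, against 0.01 over all genes, and 6 were above 0, against 51.3% of all genes. The acute phase gene Saa3, higher than in air at both times, read 934.0, 831.9 and 1155.7 and then 831.0, 1254.1 and 786.1, with overlap and a difference of -0.04 ± 0.30 (adjusted p = 0.99, limma). Timp1, an inhibitor of matrix proteases, differed by -0.28 ± 0.20 (adjusted p = 0.781, limma) and overlapped.

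The alternative activation gene Retnla read 3577.0, 3659.8 and 3432.6 and then 5090.7, 4362.8 and 4603.9, with no overlap and a difference of 0.39 ± 0.36 (adjusted p = 0.838, limma). Ptgs2, the inducible cyclooxygenase, read 131.5, 198.7 and 257.3 and then 327.4, 277.7 and 328.6, a difference of 0.67 ± 0.25 (adjusted p = 0.468, limma), or 0.30 by its other kept probe set. The neutrophil chemokine Cxcl1 read 256.4, 192.8 and 867.1 at 24 h, again highest on the third array, and 203.7, 184.5 and 150.0 at 48 h. Tlr4 itself, at 238.2, 289.7 and 243.5 against 285.9, 252.9 and 291.3, overlapped and differed by 0.10 ± 0.17 (adjusted p = 0.917, limma). The scavenger receptor gene Marco read 101.3, 89.3 and 85.1 and then 64.6, 104.3 and 196.6, with overlap. None of the 18 cytokine and chemokine, 8 neutrophil, 27 macrophage and monocyte or 35 interferon response genes passed in either direction.

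**Figure D4:**
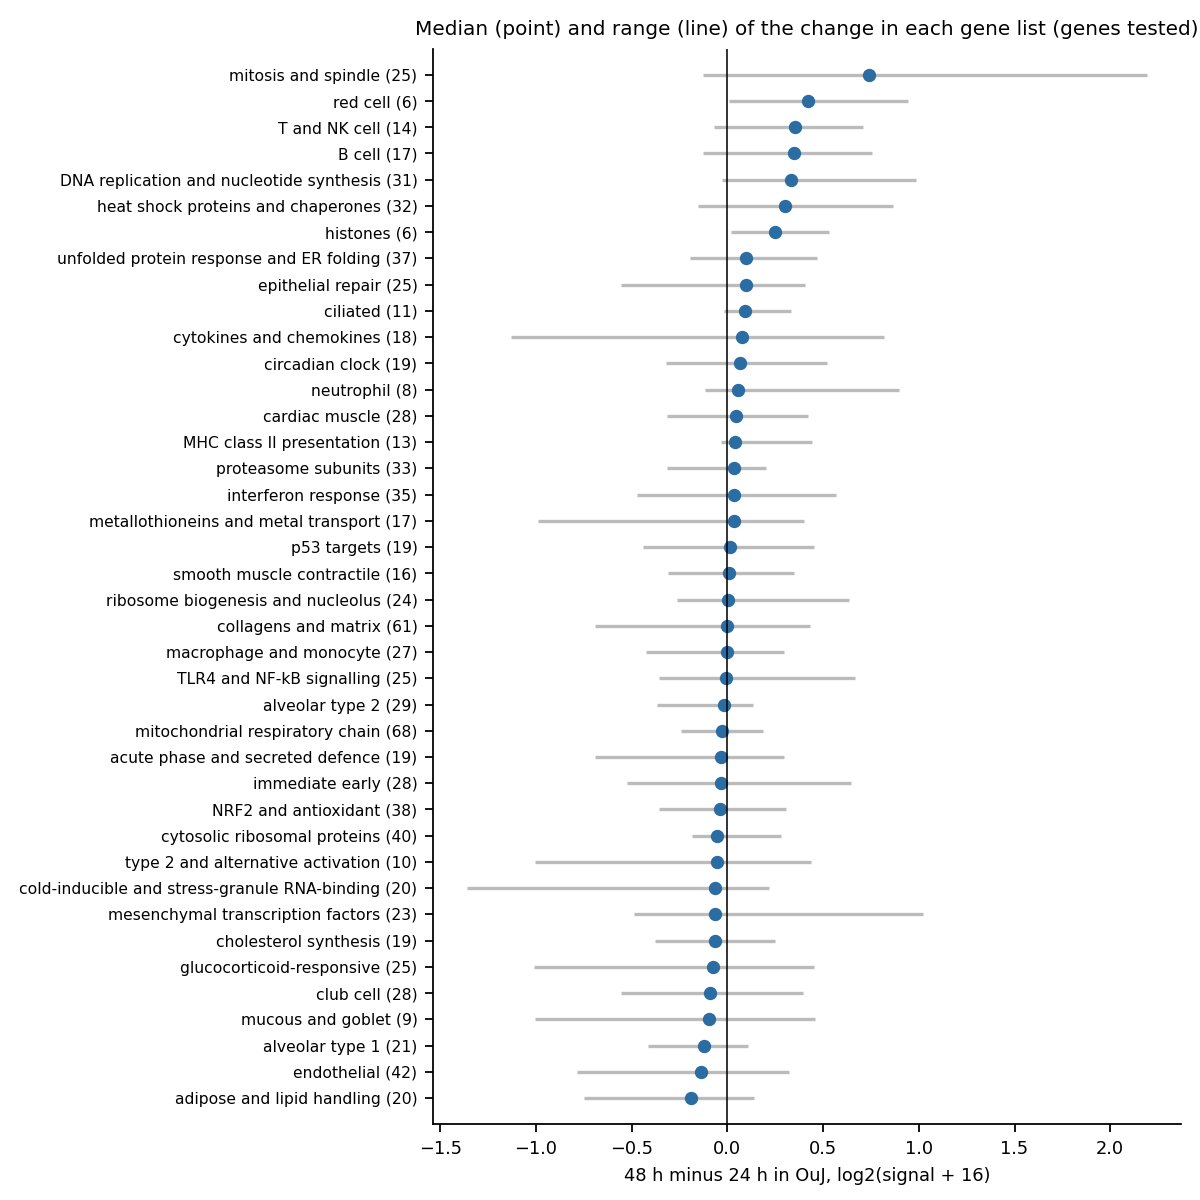
Median change from 24 to 48 h of ozone in OuJ lung (points) and the range of the members (lines) for 40 gene lists, in differences of log2(signal + 16), with the number of genes tested in brackets. The median of the mitosis and spindle list is 0.74 over 25 tested members, 11 of them kept only through 48 h arrays, and 0.68 over all 52 on the array. That of the adipose and lipid handling list is -0.19.

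The change from 24 to 48 h was also measured in HeJ mice, on 6 other arrays. There 210 genes rose (2.62% of those tested) and 228 fell (2.85%), 5.47% in all. The difference between the strains' changes did not pass for any gene (limma, smallest adjusted p 0.0982), with 885 genes, or 11.1%, at an unadjusted p under 0.05, so the larger count in HeJ does not show that a gene changed differently there. Each of the 12 genes had a change above 0 in HeJ, from 0.13 to 1.17, as did 49.6% of all genes. Of the 12, 5 rose there (Pttg1, Ube2c, Prc1, Pclaf and Rrm2), where 2.62% of all genes did. But Ube2c, Prc1, Ccnb2, Mki67, Kif22 and Pbk passed the filter only through 48 h arrays, those of HeJ included. Their direction in HeJ is partly set by that filter, so these counts are no independent evidence of a rise in HeJ. The OuJ change was the larger in 11 of the 12, Rrm2 being the exception, and in 51.1% of all genes, but the 12 were chosen for a large change in OuJ, so nothing is read from that count. Their adjusted p for the strain difference ran from 0.147, for Pttg1, to 0.933, for Pclaf (limma).

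The levels of the 12 genes in both strains are given as a description, since genes low at 24 h and high at 48 h in OuJ were the ones chosen. All 3 HeJ arrays of 24 h lay above all 3 OuJ arrays of 24 h in 7 of the 12 (10.5% of all genes), whereas at 48 h the HeJ arrays were all above in 1 (18.5% of all genes) and all below in 4 (13.0% of all genes). Pttg1 read 952.6, 957.4 and 1228.5 in HeJ at 24 h and 1248.5, 1507.7 and 1711.1 at 48 h, a rise of 0.50 ± 0.13 (adjusted p = 0.0308, limma) beside 1.29 ± 0.13 in OuJ. The difference between the strains was 0.79 ± 0.19 (adjusted p = 0.147, limma). Pclaf read 284.5, 421.8 and 230.6 and then 699.7, 730.0 and 672.6 in HeJ, a rise of 1.17 ± 0.20 (adjusted p = 0.00332, limma) beside 1.26 ± 0.20 in OuJ. Over the 52 mitosis genes on the array the median was 0.41 in HeJ, with 42 above 0, and 0.68 in OuJ. Across the 8008 genes, which are not independent replicates, the strains' changes had a Pearson r of 0.23. The strains' 24 and 48 h arrays carry codes of series 10 (OuJ) and 13 (HeJ), so levels of the strains cannot be told apart from these series. The Gapdh 5' to 3' ratio was 0.794 to 1.03 on the OuJ arrays and 0.497 to 0.944 on the HeJ arrays, and its part in the strain values was not tested.

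The genes with the smallest p for the strain difference include several whose change passed in HeJ and not in OuJ. Dcpp3, a demilune cell and parotid protein gene, read 219.4, 209.3 and 179.5 and then 270.3, 345.0 and 355.2 in OuJ, and 291.4, 249.7 and 345.8 and then 183.7, 196.0 and 153.0 in HeJ. The times did not overlap in either strain and lay in opposite order, with a strain difference of 1.31 ± 0.24 (adjusted p = 0.0982, limma). The platelet receptor gene Clec1b differed by 0.49 ± 0.22 in OuJ and by -0.95 ± 0.22 in HeJ, a strain difference of 1.44 ± 0.32 (adjusted p = 0.131, limma). Cyp7b1, an oxysterol hydroxylase, read 277.9, 275.5 and 339.9 and then 208.2, 231.7 and 189.1 in OuJ, where the difference was -0.47 ± 0.23 (-0.03 by its other kept probe set), and rose by 1.10 ± 0.23 in HeJ (adjusted p = 0.0072, limma). The strain difference was -1.58 ± 0.32 (adjusted p = 0.107, limma). The glutamate transporter gene Slc1a3 had a strain difference of -1.77 ± 0.36 and the guidance cue Ntn1 one of -0.72 ± 0.14 (adjusted p = 0.107 for both, limma). The Slc1a3 probe set was dim in OuJ, with mean signals of 141.27 and then 87.47, a difference of -0.61. Its other probe sets, which the filter left out, had values of 0.84 and -0.03.

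Saa3, at -0.04 ± 0.30 in OuJ, rose by 1.67 ± 0.30 in HeJ (adjusted p = 0.00353, limma), and the strain difference of -1.72 ± 0.43 did not pass (adjusted p = 0.147, limma). Elmo1, an engulfment gene, fell by 0.92 ± 0.15 in HeJ (adjusted p = 0.00236, limma) and had a value of 0.00 ± 0.15 in OuJ, with a strain difference of 0.92 ± 0.21 (adjusted p = 0.135, limma). Leaving out the second HeJ 24 h array gave 16 genes that differed between the strains.

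**Figure D5:**
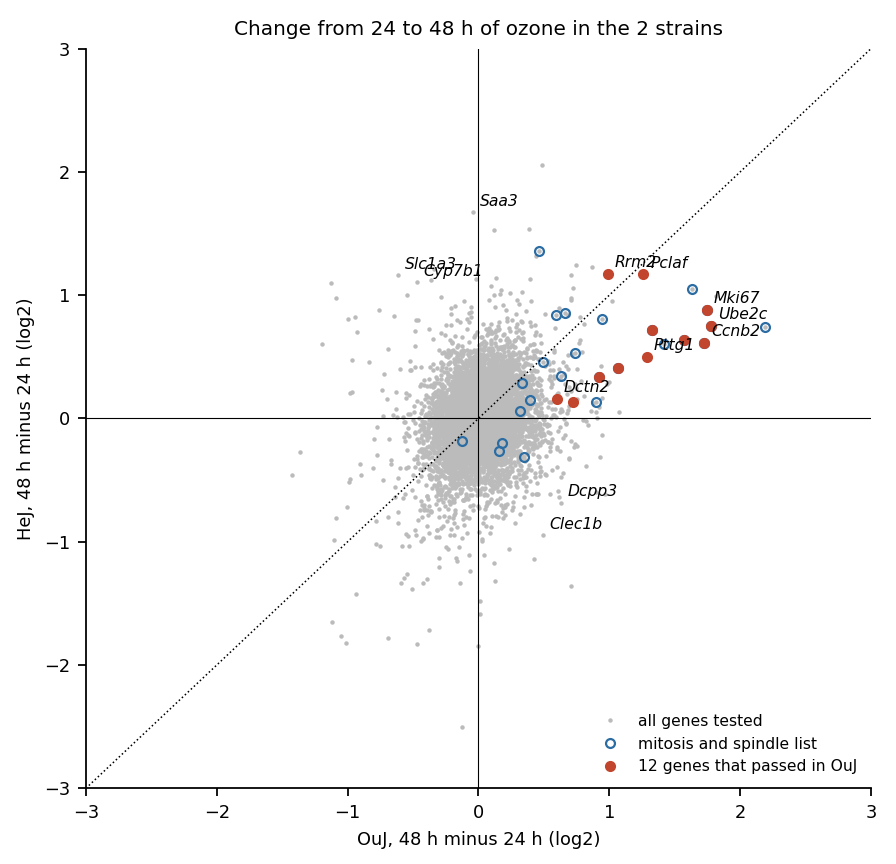
Change from 24 to 48 h of ozone in OuJ (horizontal) and HeJ (vertical) for the 8008 genes tested, in differences of log2(signal + 16). Filled points are the 12 genes that passed in OuJ, open circles the 25 tested mitosis and spindle genes, and the dotted line marks equal change. All 12 filled points lie above 0 on both axes. They were chosen for their change in OuJ, so their place relative to the dotted line follows in part from that choice.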

How the data were processed

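Total RNA of the left lung lobe of 24 male mice was measured, 1 Affymetrix Mouse 430A 2.0 array per mouse, 3 mice in each of 8 groups taken from the labels. The deposited values are signal intensity values on a linear scale for 22690 probe sets, made by the authors with GCOS 1.4, per the submitters' processing notes, and were found to share a trimmed mean near 500.2 on each array. The sources used here give no further settings, and detection calls were not used.

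The deposited intensity was turned into log2(signal + 16). A probe set was kept where its signal passed 218.3, the overall median, on 3 or more of the 24 arrays. For each gene with 1 symbol in the platform annotation, 20351 of 20380 such probe sets matching RefSeq, the kept probe set with the highest mean was used. This gave 8008 genes. A pseudocount understates the change of dim genes. Probe sets whose names end in s_at or x_at can also bind related sequences, which applies to those used for Pttg1, Prc1, Pbk, Kif22 and Rrm2.

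The 24 arrays entered a single fit of 8 group means in limma 3.58.1 (R 4.3.3, reading the files with data.table, version 1.17.8), with an intensity trend in the moderated variances, and tested on simulated data. P-values are two-sided and adjusted by Benjamini-Hochberg over all genes tested, passing under 0.05. SE is that of the fit, with a median of 0.15 for the change from 24 to 48 h. The number of arrays limits the precision. The 5' to 3' ratios were compared by exact permutation.

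The labels name no pairing of the mice by replicate number. Deviations of same-numbered arrays correlated at -0.043, -0.0771 and 0.0133, which cannot exclude a pairing. The fit was repeated with each array left out, with only the groups compared, with the replicate block, with array weights, without the trend, on averaged probe sets, with a filter on mean signal or with none, with a pseudocount of 1 or 64, and after centring on medians or quantile normalization. The 12 genes and the 40 gene lists (1492 entries, 934 of them tested) were described with earlier results of these data known. Genes named are the largest rises that passed, the smallest p in each list and in the strain difference, falls filled up to 6 by p, and Hspa1a, Hspa1b, Hsph1, Marco, Tlr4, Saa3, Timp1, Retnla, Mki67 and Rrm2; Cep55, Hp, and members named for their role were added. The 72 h exposure that the labels mention was not analysed here.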

Additional observations from a re-analysis of the deposited data

How the results depend on the processing

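The 12 rises of OuJ lung from 24 to 48 h remained above 0 in every alternative that tested them. The count of genes that passed was 21 with median centring (11 up, 10 down), 3 with the filter on the mean signal (Pttg1, Pclaf and Rrm2), 19 without the intensity trend, 27 with array weights and 6 with only the groups compared. It was 12 to 17 with quantile normalization, either pseudocount, no filter, the mean of probe sets and all kept probe sets, the last chosen after seeing the data. With the replicate block it was 14 (13 up, 1 down), all 12 genes among them, although the labels name no pairing by replicate number. Leaving out each array in turn gave 6 to 22. Of the mitosis members, 7 of 25 rose, against 0 of 11 with the filter on the mean, which removes dim genes, 4 with only the groups compared and 4 to 6 leaving out each array. Of the heat shock members none rose, and 0 to 9 did leaving out each array. The strain difference passed in no gene, and in 2 with a pseudocount of 64, 3 without the trend, 6 with only the groups compared and 0 to 16 leaving out each array. Median centring moved its median over all genes from 0.01 to -0.10. The value of Elmo1, 48 h minus 24 h in OuJ, changed sign with quantile normalization (-0.0116), median centring (-0.0677), array weights (-0.0564) and with single arrays left out (-0.0988 to 0.1831), that of Saa3 with single arrays left out (-0.251 to 0.0851) and that of Marco likewise (-0.1291 to 0.5706, the lowest without the third 48 h array). None of these passed. The cause of these shifts was not tested. Low signal limits what can be said of genes such as Melk and Cdk1 at 24 h.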
